A study of Homo sapiens with 17 samples.

Results

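The messages of 10 genes of cellular iron handling were followed across 17 libraries of K562. This is a human cell line from a chronic myeloid leukaemia with erythroid features. They are the ferritin subunits FTH1 and FTL, the transferrin receptor TFRC, the endosomal reductase STEAP3, the iron importer SLC11A2, the iron exporter SLC40A1, the mitochondrial carriers SLC25A37 and SLC25A39, and the iron sensors IREB2 and ACO1. The 10 genes are a named list, set with earlier results of these data known, out of 57638 genes in the table, and all 10 had reads. For each library, the estimated reads of a gene's transcripts were added up and scaled to a common total of reads in genes (CPM).

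Every library comes from cells that received CRISPR activation plasmids by electroporation and an antisense oligonucleotide (ASO) after that, with collection on day 6, so no library is untreated. The plasmid labels were GOLGA8N (libraries GOLGA8N 1, GOLGA8N 2 and 23-GOLGA8N), LAPTM4B (LAPTM4B 1, LAPTM4B 2 and 22-LAPTM4B), a reference group of 3 labels that name no human gene (Neg, GFP and RFP), and 1 library each of 21-CTPS2, 20-ARSF, TTR, TRPC5OS, E7, ADORA2A, UBE2V1 and COL6A6. The labels of 4 libraries carry a number before the gene name (20, 21, 22 and 23), here called prefixed, and the other 13 do not. The labels do not say what the numbers or E7 stand for, and name neither the ASO nor the guides. They also do not state separate cultures, so a p-value here refers to the spread among these libraries, part of which may be technical.

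Cells take up iron bound to transferrin through the transferrin receptor, reduce it in the endosome with STEAP3 and move it to the cytosol through SLC11A2 (DMT1). From there it is carried into mitochondria by SLC25A37 (mitoferrin-1) for heme and iron-sulfur cluster synthesis. Iron that is not used is stored in ferritin, a shell of heavy (FTH1) and light (FTL) chains, or leaves the cell through SLC40A1 (ferroportin). The iron regulatory proteins encoded by ACO1 and IREB2 bind hairpins in messenger RNAs, called iron-responsive elements, when iron is scarce. Bound at the 5′ end of a message they block its translation, and bound at the 3′ end of the transferrin receptor message they protect it from decay. Erythroid cells depend on these genes heavily because they make hemoglobin.

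The elements are shown because the iron regulatory proteins bind them and because their place differs between the ferritin messages and that of TFRC. They were searched on the sense strand of GENCODE 29 transcripts (GRCh38) as a C, then 5 bases, the loop CAGTGN, and 5 bases that pair (G-U pairs allowed) with the 5 before the loop. Capitals mark the loop. The 5′ UTR of FTH1 (chr11:61967574-61967602, minus strand), of FTL (chr19:48965335-48965363, plus strand) and of SLC40A1 (chr2:189580661-189580689, minus strand) each held 1 match. The 3′ UTR of TFRC held 4, all on the minus strand, at chr3:196050979-196051007, chr3:196050575-196050603, chr3:196050510-196050538 and chr3:196050463-196050491, listed here in the 5′ to 3′ order of the message.
FTH1: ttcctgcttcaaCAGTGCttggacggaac
FTL: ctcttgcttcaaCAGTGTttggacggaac
SLC40A1: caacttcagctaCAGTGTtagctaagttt
TFRC element 1: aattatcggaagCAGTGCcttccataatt
TFRC element 2: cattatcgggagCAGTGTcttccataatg
TFRC element 3: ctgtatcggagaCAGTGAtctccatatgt
TFRC element 4: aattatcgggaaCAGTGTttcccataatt

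The FTL element equalled that of FTH1 at 26 of 29 bases, and the SLC40A1 element equalled it at 13. Transcripts that hold the match were assigned 99.95% of the FTH1 reads, all of the FTL reads, 96.01% of the SLC40A1 reads and 99.77% of the TFRC reads. The libraries sample the 3′ end of messages. These shares are thus assignments among annotated transcripts and do not show that the 5′ UTR was present. Among all protein-coding transcripts searched, 0.11% held the pattern in the 5′ UTR and 0.368% in the 3′ UTR (0.198% and 0.705% of genes). No annotated transcript of SLC25A39, SLC11A2, STEAP3, IREB2 or ACO1 held these letters, which says nothing about other forms of the element. SLC25A37 was not searched.

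The shallowest library, GFP, held 569057 estimated reads and the deepest, 20-ARSF, 4236396. A count of 3 reads corresponds to 5.46 CPM in GFP and to 0.733 CPM in 20-ARSF. GFP stood apart from the rest, with a Spearman correlation of 0.799 to 0.84 with the other libraries over 2485 genes, against 0.851 to 0.938 among the others; genes are not independent replicates. GOLGA8N itself received 0.7 estimated reads in its 3 libraries and 1.3 in the 14 others, and the libraries labelled LAPTM4B had 189 ± 29.7 CPM of that gene (SD, n = 3) against 227 ± 43.3 elsewhere (SD, n = 14). GOLGA8N thus rests on too few reads to compare, and LAPTM4B was not higher under its own label. Labels call the cells lymphoblasts, yet all 13 erythroid markers had reads, at a summed 6499 to 12537 CPM, while MS4A1, CD79B and EBF1 of 6 B lymphoid markers had none and that list never passed 5.62 CPM. Of 5 T lymphoid markers, CD3E and CD2 had no read, but CD3D had reads in all 17 libraries at a mean of 65.8 CPM, and the list summed to 38.3 to 122 CPM.

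The ferritin chains were by far the most abundant of these messages. FTL averaged 5279 ± 767 CPM (SD, n = 17) and FTH1 1793 ± 331, and together they took 0.561% (TTR) to 0.992% (21-CTPS2) of the reads in genes. TFRC followed at 332 ± 53.0 CPM, SLC25A37 at 207 ± 62.7, SLC25A39 at 145 ± 19.8 and IREB2 at 48.0 ± 13.5. The lowest were ACO1 at 25.9 ± 8.06, SLC11A2 at 19.8 ± 10.9, STEAP3 at 16.96 ± 10.1 and SLC40A1 at 8.20 ± 3.66 CPM. In bulk libraries such as these, fewer cells of a kind and less RNA per cell cannot be told apart.

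In that order the ranges over libraries of FTL, FTH1 and TFRC do not touch each other, while TFRC overlaps SLC25A37, SLC25A37 overlaps SLC25A39, SLC25A39 does not reach IREB2, and from IREB2 down each gene overlaps its neighbour. CPM in a 3′ tag library is not divided by length. On the deposited per-length scale, TPM, SLC25A39 had rank 3 at 33.9 ± 5.17 (SD, n = 17), ahead of TFRC at 24.4 ± 4.4 and SLC25A37 at 20.8 ± 8.12. The order of these 3 genes thus differs between the scales. In the 13 unprefixed libraries the spread of every member exceeded counting error: the chi-square per degree of freedom ran from 4.61 for SLC40A1 to 205 for FTL.

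**Figure D1:**
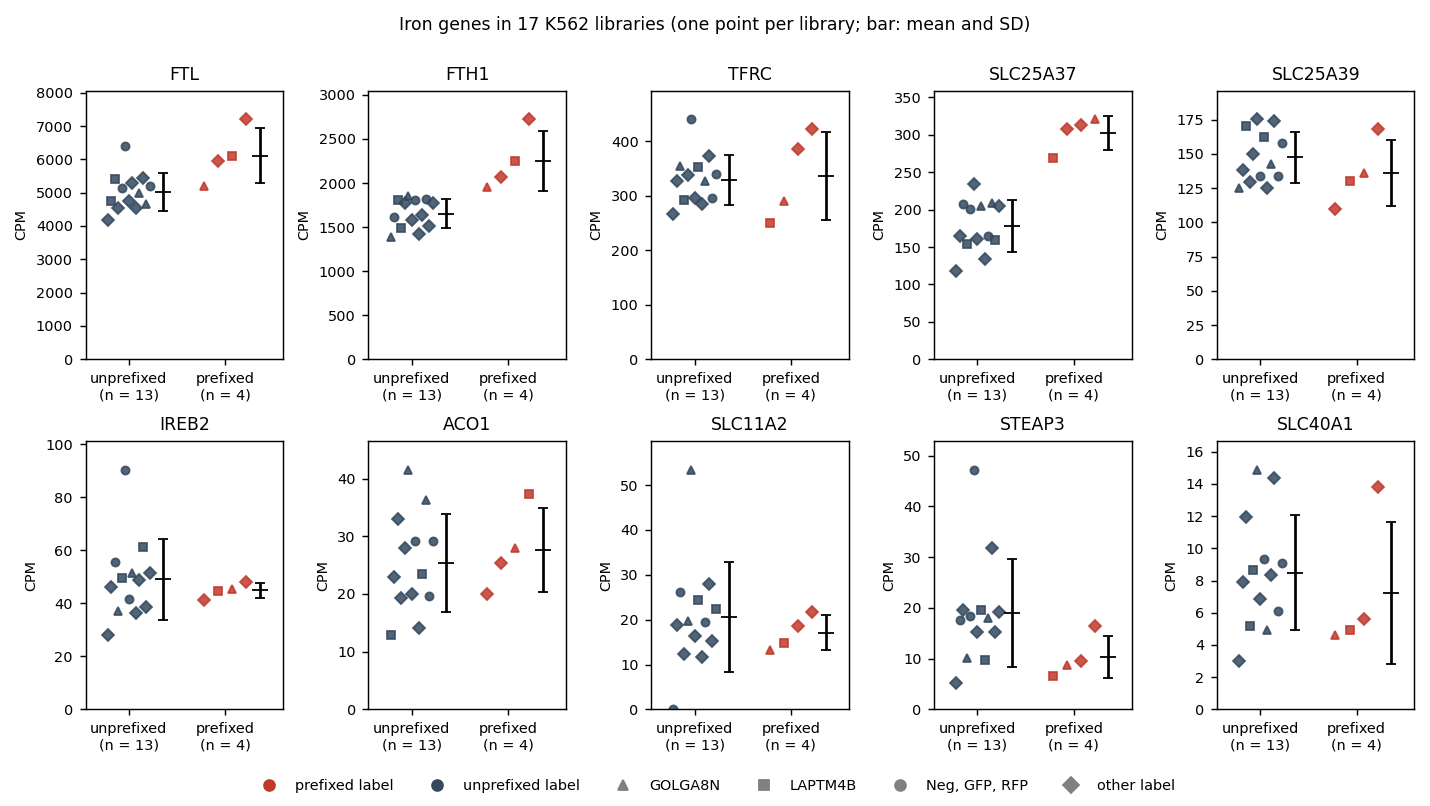
CPM (vertical axes, each from 0) of the 10 genes in 13 unprefixed and 4 prefixed libraries; each point is 1 library, its shape gives the plasmid label, and bars give the mean and SD. FTH1 and SLC25A37 are the only panels in which the prefixed libraries lie wholly above the others, while for FTL, TFRC and the low genes the groups overlap.

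The differences among these genes that passed the test were between prefixed and unprefixed labels. SLC25A37 and FTH1 rose in the prefixed libraries, and the other 8 members did not pass the test. The comparison of 4 prefixed with 13 unprefixed libraries used edgeR's quasi-likelihood test with Benjamini-Hochberg adjustment over 12319 genes and a threshold of 0.05. It called 0.284% of genes in either direction and 0.235% as higher, and 2 of the 10 members were called, both higher. The labels do not name the prefix as a batch, and it cannot be told apart from anything else those 4 libraries share.

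SLC25A37, the main importer of iron into the mitochondria of erythroid cells, was at 307 CPM in 20-ARSF, 313 in 21-CTPS2, 269 in 22-LAPTM4B and 321 in 23-GOLGA8N. The 13 unprefixed libraries ran from 118 CPM (COL6A6) through a median of 165 to 234 (E7). All 4 prefixed libraries lay above all 13 others, a separation that 0.357% of tested genes showed. The means were 302 ± 23.0 (SD, n = 4) and 178 ± 34.3 CPM (SD, n = 13), a ratio of 1.70. The log2 difference was 0.78 ± 0.131 (SE), with an edgeR adjusted p of 0.00316. Within the GOLGA8N and LAPTM4B labels alone it was 0.73 (edgeR adjusted p = 0.0411): 23-GOLGA8N exceeded the 208 and 205 CPM of GOLGA8N 1 and 2, and 22-LAPTM4B exceeded the 159 and 154 CPM of LAPTM4B 1 and 2.

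FTH1, the ferritin chain that oxidises iron for storage, was at 2068 CPM in 20-ARSF, 2721 in 21-CTPS2, 2253 in 22-LAPTM4B and 1955 in 23-GOLGA8N. The unprefixed libraries ran from 1384 CPM (GOLGA8N 1) through a median of 1637 to 1857 (GOLGA8N 2). The groups did not overlap, but the gap between 23-GOLGA8N and GOLGA8N 2 was narrow. The means were 2249 ± 338 (SD, n = 4) and 1652 ± 164 CPM (SD, n = 13). The log2 difference was 0.46 ± 0.0910 (SE), with an edgeR adjusted p of 0.0177. That call was lost without 21-CTPS2 (0.38, edgeR adjusted p = 0.142), without 22-LAPTM4B (0.44, edgeR adjusted p = 0.130) and within the GOLGA8N and LAPTM4B labels alone (0.39, edgeR adjusted p = 0.281).

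FTL, the light chain that supports mineral growth inside the shell, was at 5939, 7198, 6100 and 5200 CPM in 20-ARSF, 21-CTPS2, 22-LAPTM4B and 23-GOLGA8N. Unprefixed libraries ran from 4192 CPM (TTR) through a median of 4997 to 6398 (Neg). The groups overlapped, since Neg lay above 3 of the 4 prefixed libraries. The log2 difference of 0.30 ± 0.0827 (SE) did not pass edgeR's test (adjusted p = 0.127), whereas DESeq2 (0.29, adjusted p = 0.0238), limma-voom (0.30, adjusted p = 0.0267) and edgeR with no filter on low counts (0.31, adjusted p = 0.0306) called it.

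Some other properties of the libraries separated by prefix, with narrow gaps, while others overlapped. Ribosomal protein genes took 24.6% to 25.3% of the reads in the prefixed and 21.7% to 24.5% in the unprefixed libraries, without overlap. The 6 fibroblast markers summed to 20.7 to 38.1 CPM against 40.003 to 64.3, also without overlap. COL1A2 supplied most of that sum, yet its own ranges overlapped (20.7 to 35.2 against 32.7 to 62.6 CPM). LUM and PDGFRB had no read. Mitochondrially encoded genes overlapped (13.4% to 15.8% against 13.6% to 17.5%), as did the summed erythroid (7380 to 10642 against 6499 to 12537 CPM), T lymphoid (41.4 to 92.8 against 38.3 to 122 CPM) and myeloid markers (11.04 to 29.5 against 8.37 to 34.5 CPM). Prefixed libraries held 2174638 to 4090195 reads in genes and the unprefixed ones 549962 to 4016411. The part of these measures in the SLC25A37 and FTH1 differences was not tested. Without GFP, the shallowest library, SLC25A37 differed by 0.79 (edgeR adjusted p = 0.00248) and FTH1 by 0.44 (edgeR adjusted p = 0.0104) on the log2 scale.

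**Figure D2:**
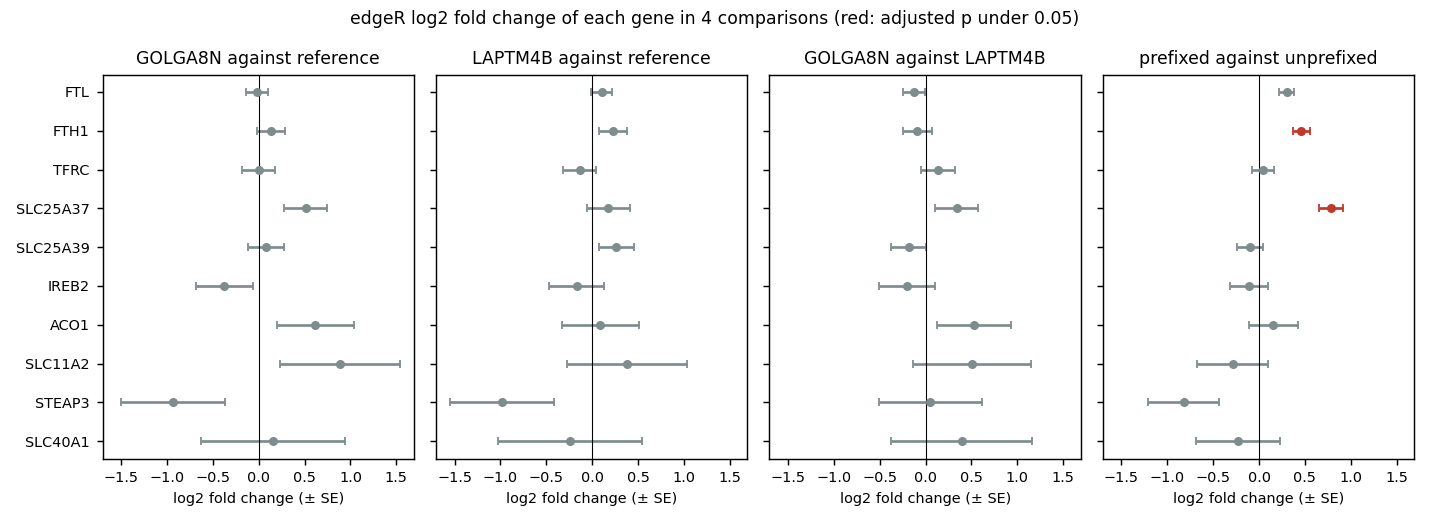
Fitted log2 fold change with its SE (horizontal axes) for each of the 10 genes in 4 comparisons, with red marking an adjusted p under 0.05. Only SLC25A37 and FTH1 in the comparison of prefixed with unprefixed labels are red, and the low genes STEAP3, SLC11A2 and SLC40A1 have the widest errors.

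SLC25A39, a related mitochondrial carrier known for glutathione import, did not pass the test by prefix. It ran from 110 CPM in 21-CTPS2 to 175 in UBE2V1, and its prefixed mean of 136 ± 24.1 (SD, n = 4) lay within 1 SD of the unprefixed 148 ± 18.5 (SD, n = 13), at a log2 difference of -0.10 ± 0.141 (SE). The read ratio of SLC25A37 to SLC25A39 was 1.83 to 2.85 in the prefixed libraries and 0.68 to 1.81 in the unprefixed ones. These ratios do not overlap, though 20-ARSF and E7 lay close. SLC25A37 alone already separated the libraries, so the ratio is a description and no further result.

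TFRC, which brings transferrin-bound iron into the cell, did not pass the test with the prefix (log2 0.04 ± 0.122, SE). Within the prefixed libraries it was 385 CPM in 20-ARSF, 423 in 21-CTPS2, 249.9 in 22-LAPTM4B and 289.7 in 23-GOLGA8N, which spans nearly the whole range of the gene. The unprefixed libraries ran from 266 CPM (UBE2V1) through a median of 328 to 440 (Neg). 22-LAPTM4B thus held the lowest TFRC and the second highest FTH1 of all libraries, and its ratio of ferritin to TFRC reads, 33.4, was the highest, against a mean of 21.6 ± 3.82 (SD, n = 17) and a low of 16.6 in TTR.

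IREB2 encodes the iron regulatory protein that is degraded when iron is ample, and ACO1 the one that becomes a cytosolic aconitase. IREB2 was at 41.1 to 48.1 CPM in the prefixed libraries and ran from 28.0 (TRPC5OS) through a median of 48.7 to 90.5 CPM (Neg) in the unprefixed ones. Neg was also the library with the highest TFRC, but the relation of IREB2 to TFRC was not tested. ACO1 was at 19.9, 25.4, 37.3 and 28.1 CPM in 20-ARSF, 21-CTPS2, 22-LAPTM4B and 23-GOLGA8N, and from 12.9 (LAPTM4B 1) through 23.5 to 41.6 CPM (GOLGA8N 1) in the rest. Neither sensor was called (log2 -0.11 ± 0.203 for IREB2 and 0.16 ± 0.268 for ACO1, each with its SE).

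The annotated transcript that received the reads varied between libraries for IREB2 and SLC11A2. IREB2-201, which ends at chromosome 15 position 78501456, held a median of 77.1% of the gene's reads per library, and IREB2-208, which ends upstream at 78476700, a median of 14.9%. IREB2-208 had no read in GOLGA8N 2 and 100.2 estimated reads in Neg, its highest count, while its share was highest in TTR at 49.9%. For SLC11A2 the transcript that received most reads, SLC11A2-223, is annotated as a retained intron and held 716 of about 1034 reads. Its share ran from 45% in 21-CTPS2 to 95.3% in Neg, over the 16 libraries with reads. SLC11A2-223 lies on the minus strand, with its 3′ end at chromosome 12 position 50985993. Protein-coding transcripts of the gene with their 3′ end at position 50985992 were assigned no read. Reads that sample the 3′ end may not separate these models. Whether the SLC11A2 level is mostly that of a transcript with no annotated protein was therefore not settled.

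**Figure D3:**
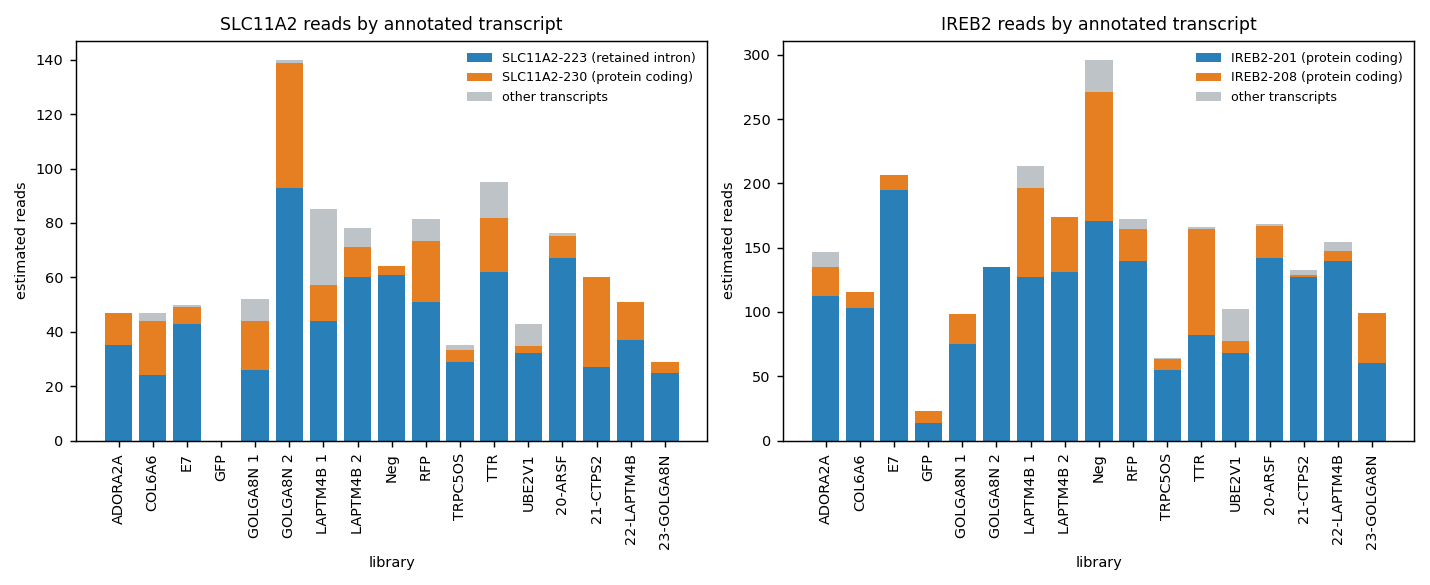
Estimated reads (vertical axes, from 0) of SLC11A2 and IREB2 in each library, stacked by annotated transcript. SLC11A2-223 makes up most of the SLC11A2 bars, GFP has none, and Neg has the tallest IREB2 bar with 100.2 reads of IREB2-208.

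The remaining import and export genes were low and uneven. STEAP3, the endosomal ferrireductase, was at 9.54, 16.3, 6.65 and 8.74 CPM in 20-ARSF, 21-CTPS2, 22-LAPTM4B and 23-GOLGA8N, against 5.29 (TTR) through 18.0 to 47.3 CPM (GFP, on 26 reads) in the others. Its log2 difference by prefix was -0.82 ± 0.387 (SE), with an edgeR adjusted p of 0.51. SLC11A2 was listed at 0 in GFP, where 3 reads would be 5.46 CPM, and reached 53.5 CPM in GOLGA8N 2, well above TTR, the next library, at 27.9. SLC40A1 stood on 5 to 48 reads per library, from 2.99 CPM in E7 to 14.9 in GOLGA8N 2. For SLC11A2 and SLC40A1 the prefix differences were -0.29 ± 0.386 and -0.23 ± 0.459 on the log2 scale (SE), smaller than their errors.

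The plasmid labels were compared next. Since neither target was measurably higher under its own label, these comparisons are between labels and not between levels of activation. No member passed edgeR's test in any of these 3 comparisons. Over 11916 genes, 0.0168% were called between GOLGA8N and reference, 0% between LAPTM4B and reference, and 0.00839% between GOLGA8N and LAPTM4B. At an unadjusted p under 0.05 there were 677, 470 and 243 genes, where 596 are given by chance, and DESeq2 and limma-voom called no member either. A missed threshold with 3 libraries a label does not show that the levels were equal. No member's CPM separated the groups. Of all tested genes, 11.8%, 10.1% and 8.33% did so in the 3 comparisons. At shares of that size, none among so few members is no result about them. The first 2 comparisons share the reference libraries.

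Between GOLGA8N and reference, SLC25A37 had the lowest unadjusted p of the members. The 3 GOLGA8N libraries had 208, 205 and (23-GOLGA8N) 321 CPM, and Neg, GFP and RFP had 201, 208 and 165, so GOLGA8N 1 and 2 lay among the reference libraries or level with their highest, and 23-GOLGA8N lay above them. The log2 difference was 0.51 ± 0.236 (SE; edgeR adjusted p = 0.864). It was 0.28 without 23-GOLGA8N and 0.24 with the label prefix as a term. Between LAPTM4B and reference the SLC25A37 difference was 0.17 ± 0.236 (SE), and it was -0.16 without 22-LAPTM4B.

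Ferritin and TFRC differences all lay within 2 SE of 0. FTH1 differed by 0.14 ± 0.156 between GOLGA8N and reference and by 0.23 ± 0.156 between LAPTM4B and reference, and FTL by -0.02 ± 0.118 and 0.10 ± 0.118 (log2, SE). TFRC differed by -0.0021 ± 0.183 and -0.14 ± 0.183.

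Low members gave larger values with wider errors. STEAP3 was at 12.3 ± 4.95 CPM (SD, n = 3) in GOLGA8N and 12.0 ± 6.74 (SD, n = 3) in LAPTM4B libraries, against 27.8 ± 16.9 (SD, n = 3) in the reference, whose mean rests on GFP; without GFP the log2 differences of -0.93 and -0.98 became -0.42 and -0.46. SLC11A2 differed by 0.88 ± 0.655 (SE) between GOLGA8N and reference, and by 0.11 without GOLGA8N 2. IREB2 differed by -0.37 ± 0.307 (SE), and by 0.01 without Neg. ACO1 differed by 0.62 ± 0.417 (SE) between GOLGA8N and reference, and by 0.53 ± 0.405 between GOLGA8N and LAPTM4B.

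Single-library labels supplied several extremes. 21-CTPS2 was highest for both ferritin chains and lowest for SLC25A39, TTR was lowest for FTL and STEAP3, and COL6A6 was lowest for SLC25A37. UBE2V1 was highest for SLC25A39, TRPC5OS lowest for IREB2 and E7 lowest for SLC40A1. With 1 library a label these values have no replicate check.

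Libraries with more FTH1 also held more FTL. FTH1 and FTL had a Pearson r of 0.854 (permutation test, adjusted p = 0.0002) and a Spearman rho of 0.777 (permutation test, adjusted p = 0.00295) on log2(CPM + 1) over 17 libraries, two-sided and adjusted over 5 pairs. Without the 2 libraries farthest from the median FTH1, 21-CTPS2 and GOLGA8N 1, r was 0.762. Within the 13 unprefixed libraries r was 0.671 (permutation test, adjusted p = 0.0492) and rho 0.665 (permutation test, adjusted p = 0.080), so only the first passed there. The read ratio of FTL to FTH1 was 2.97 ± 0.271 (SD, n = 17), from 2.65 in 21-CTPS2 to 3.54 in Neg, with 2.72 ± 0.104 (SD, n = 4) in prefixed and 3.05 ± 0.261 (SD, n = 13) in unprefixed libraries.

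No other pair passed. FTL and TFRC had r of 0.483 (permutation test, adjusted p = 0.127), TFRC and SLC25A37 0.298 (permutation test, adjusted p = 0.380), FTH1 and TFRC 0.264 (permutation test, adjusted p = 0.380), and IREB2 and ACO1 -0.029 (permutation test, adjusted p = 0.913). Without the 2 libraries farthest from the median of the first gene of the pair, r was 0.408 for FTL and TFRC, 0.541 for TFRC and SLC25A37, 0.0031 for FTH1 and TFRC, and -0.361 for IREB2 and ACO1. In the 13 unprefixed libraries FTL and TFRC had r of 0.614 (permutation test, adjusted p = 0.0658). These points share depth and composition, since CPM of one gene falls when others rise.

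**Figure D4:**
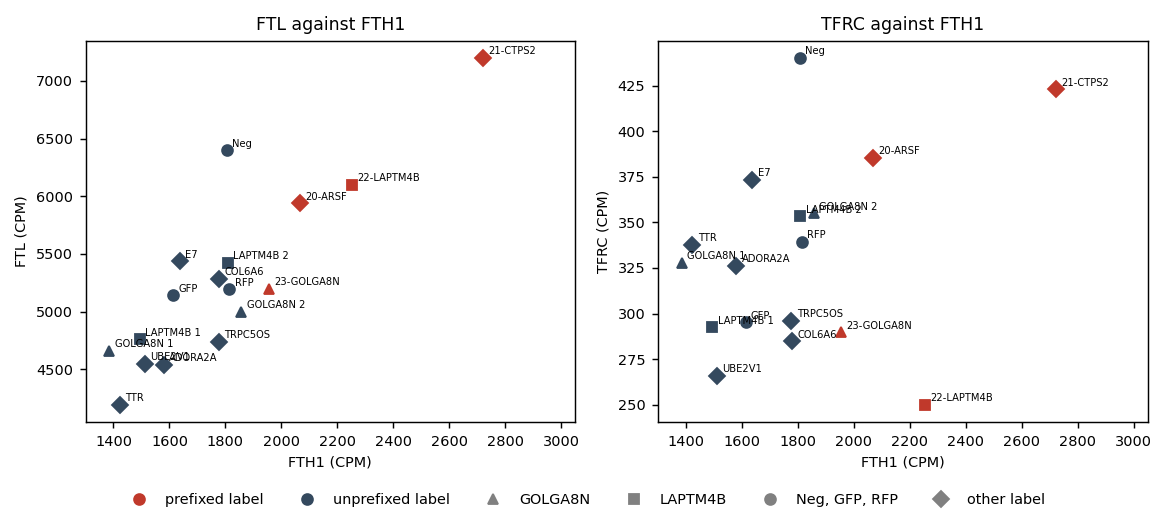
FTL against FTH1 (left) and TFRC against FTH1 (right), both in CPM, with 1 point per library, colour for the prefix and shape for the plasmid label; axes do not start at 0. FTL follows FTH1 (r = 0.854), with Neg above the others at its FTH1 level, while 22-LAPTM4B combines high FTH1 with the lowest TFRC.

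The genes whose levels were ordered most like each member over 16 libraries (all but GFP) were found by Spearman correlation among 2472 genes of at least 50 CPM, as a description. For FTH1 they included SQSTM1 (0.877), an autophagy receptor, and TPP1 (0.838), a lysosomal peptidase. For FTL they were SLC25A3 (0.818), the mitochondrial phosphate carrier, YES1 (0.809), a kinase, and ACTG1 (0.809), an actin. For TFRC they were NORAD (0.812), a long noncoding RNA, LSM4 (0.806), an RNA-binding protein, and PPP1R14B (0.756). For SLC25A37 they were TMEM63B (0.891), an ion channel, AHNAK (0.882), a very large scaffold protein, and MCL1 (0.877), a survival factor. For SLC25A39 they were PSMB7 (0.803), a proteasome subunit, TIMM8B (0.803), a mitochondrial import chaperone, and NDUFB2 (0.777), a subunit of respiratory complex I.

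Other genes of iron metabolism were taken from 7 lists holding 61 genes, of which 51 were tested by prefix and 48 by plasmid. None was called in any of the 4 comparisons, in either direction. By prefix, 9 of 51 had an unadjusted p under 0.05, beside 1153 of all 12319 genes tested. Of the 51, 19 were higher, beside 47.8% of all genes, and the median log2 difference was -0.13 beside -0.02. In the GOLGA8N comparison 2 of 48 had an unadjusted p under 0.05.

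In the prefix comparison the lowest p in the lists was that of NCOA4, which delivers ferritin to the lysosome for breakdown. It was at 210 ± 40.7 CPM (SD, n = 4) in prefixed and 148 ± 29.01 (SD, n = 13) in unprefixed libraries, a log2 difference of 0.53 ± 0.141 (SE; edgeR adjusted p = 0.112). ALAS2, the first enzyme of erythroid heme synthesis, whose message also carries an iron-responsive element, was at 156 ± 42.7 and 99.9 ± 30.7 CPM, a difference of 0.67 ± 0.191 (SE; edgeR adjusted p = 0.170). NCOA4 was called in 3 of 27 alternatives (DESeq2, no filter and without E7) and ALAS2 in 1 (no filter).

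Of the 8 tested genes of the uptake list, 0 had a higher fitted value in the prefixed libraries. The list median was -0.41, beside 47.8% higher and a median of -0.02 over all genes tested. That list leaves out the members TFRC (0.04), SLC11A2 (-0.29) and STEAP3 (-0.82), so it is not all of iron uptake. None of the 8 was called, and 1 had an unadjusted p under 0.05. SLC39A14, a zinc and iron importer, had 8.31 ± 2.02 CPM (SD, n = 4) against 16.6 ± 5.04 (SD, n = 13), a log2 difference of -0.94 (edgeR adjusted p = 0.310), and TFR2, the second transferrin receptor, had -0.30. Of 9 cytosolic iron-sulfur assembly genes, CIAO2A had -0.46 (edgeR adjusted p = 0.275) and CIAO3 -1.10 (edgeR adjusted p = 0.372). Of 16 mitochondrial assembly genes, BOLA3 had -0.33. PCBP2, an iron chaperone, had 0.25, HEPH, a ferroxidase, 0.43, and BLVRB, a biliverdin reductase, 0.18. Those values did not pass the test.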

How the data were processed

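RNA was measured with 3′ tag libraries primed with oligo-dT carrying molecular identifiers of 12 bp, per the labels' protocols. The authors deposited estimated counts and TPM of 228297 transcripts per library, with Salmon's columns per the file headers. Salmon 0.7.2, STAR, UMI-tools and featureCounts appear in the submitters' processing notes beside GRCh38. The collapsing of identifiers is not described there. Gene sums of the deposited estimated counts used GENCODE 29, matching 205336 transcripts; the rest held 3.32% to 3.6% of reads and stayed out. CPM was computed from these sums, which were rounded for tests. Floors cover counting error only, while each SD and SE includes the spread between libraries. The strand setting is not stated, so BEST1, which overlaps FTH1, is uncertain; FTH1 and FTL pseudogenes held 0.143% and 0.0458% of their parents' reads.

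Tests used edgeR 4.0.16 in R 4.3.3 (TMM, filterByExpr, robust quasi-likelihood), in 1 fit of 9 libraries for the plasmid comparisons and 1 of 17 for the prefix. The SE is the log2 difference divided by the square root of F. Alternatives used DESeq2 1.42.0, limma-voom (limma 3.58.1), other scalings, filters and sets of libraries. Both fits were tested on simulated counts and missed most of the smaller changes there. A gene that was not called is thus not shown to be unchanged. Members and lists were chosen with earlier results of these data known. Named genes were all members; list genes passing 0.05, otherwise the 2 with the lowest p per list by prefix and for GOLGA8N; and the 3 most similar genes for members of at least 50 CPM; some genes this rule names are not reported here. No 2 libraries agreed within counting noise (lowest chi-square per degree of freedom 7.27 of 136 pairs). Correlations used 100000 permutations.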

Additional observations from a re-analysis of the deposited data

Results flagged for a closer look

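SLC40A1, the iron exporter, was at 13.8 CPM in 21-CTPS2, far above the other 3 prefixed libraries (4.60 to 5.62 CPM); the gap was 0.889 of the range of the 4. Chance flags about 1 in 20 groups of this kind.

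ACO1 in the prefixed library lay on opposite sides of the unprefixed libraries under the 2 plasmid labels. 23-GOLGA8N was at 28.1 CPM, below the 41.6 and 36.3 CPM of GOLGA8N 1 and 2, whereas 22-LAPTM4B was at 37.3 CPM, above the 12.9 and 23.5 CPM of LAPTM4B 1 and 2. Each label has a single prefixed library, so scatter between libraries could not be told apart from the prefix. Whether the prefix difference of ACO1 itself differed between the 2 plasmid labels was not tested.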

How the results depend on the processing

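SLC25A37 was called by prefix in all 27 alternatives (log2 0.73 to 0.82) and FTH1 in 24. Members called rose from 2 to 3 with DESeq2, limma-voom and no filter, where FTL was also called. Their number fell to 1 within the GOLGA8N and LAPTM4B labels alone and ranged from 1 to 2 when 1 library was left out. No member was called in any alternative of the 3 plasmid comparisons. Genes called by prefix (35) were 131 with DESeq2, 557 with no filter, 16 with label terms, 73 within the GOLGA8N and LAPTM4B labels, 20 without the reference labels (chosen after seeing the data, as was leaving out unprefixed libraries), and 2 (without 22-LAPTM4B) to 102 (without E7) without 1 library, with 11 without 21-CTPS2, 7 without 23-GOLGA8N, 23 without LAPTM4B 1 and 22 without ADORA2A. For GOLGA8N against reference (2) they were 15 with DESeq2, 4 with limma-voom, 1 with RLE size factors, 1 with library totals only, 42 with no filter, 1 with the stricter filter, 18 with all 17 libraries in the fit, 7 with unprefixed labels only, 8 with the prefix as a term, 4 against all 14 others, and 1 to 5 leaving out 1 library. For LAPTM4B against reference (0) they were 1 with DESeq2, 2 with limma-voom, 25 with no filter, 4 with all 17 libraries, 2 with unprefixed labels only, and 0 to 1 leaving out 1 library. For GOLGA8N against LAPTM4B (1) they were 3 with DESeq2, 0 with limma-voom, 9 with no filter, 4 with all 17 libraries, 2 with unprefixed labels only, and 1 to 3 leaving out 1 library. With titles 1 and 2 only, 2 genes were called with the title number as a replicate block, and 2 with no block; the correlation of same-numbered deviations was 0.121, and with 2 pairs, and no label that says so, whether the numbers mark a shared batch was not settled. Where the cause of a change is not the alternative's own construction, the cause was not tested.

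A value within 1 SE of 0 was treated as having no direction, a choice made after seeing that 50 of 788 member values changed sign, 49 of them of such members. Directions reversed for IREB2 (0.0058 without Neg), FLVCR1 (-0.0020 without GOLGA8N 1), SLC39A8 (-0.13) and BLVRB (-0.014) against all 14 others, all for GOLGA8N against reference, and by prefix for EPAS1 (-0.020 within the GOLGA8N and LAPTM4B labels). Library totals alone moved the median of all genes from 0.01 to -0.14 for GOLGA8N and from 0.02 to -0.12 for LAPTM4B against reference. In deposited TPM the levels were 925 for FTH1, 2575 for FTL, 24.4 for TFRC, 20.8 for SLC25A37, 33.9 for SLC25A39, 1.48 for SLC40A1, 2.75 for SLC11A2, 1.51 for STEAP3, 4.30 for IREB2 and 2.32 for ACO1. Depth limits the low genes most: SLC40A1 had as few as 5 reads in a library.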
